A study of Arabidopsis thaliana with 6 samples.

Results

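Transcripts of 7 regulators of mitotic transcription were followed across sorted cell cycle gates of the Arabidopsis thaliana root tip. The genes are the 5 MYB3R genes (MYB3R1, AT4G32730; MYB3R2, AT4G00540; MYB3R3, AT3G09370; MYB3R4, AT5G11510; MYB3R5, AT5G02320), TSO1 (AT3G22780) and SCL28 (AT1G63100), which the reference annotation lists only as a GRAS family transcription factor. They were taken by identifier from the 32833 genes of the count table, with earlier results of these data known. All 7 passed the filter on low counts. Root tips of seedlings grown for 7 days were turned into protoplasts, cells freed of their walls. All plants were Col0 carrying the reporters H2B-RFP and CDT1a-GFP, and the labels name no treatment other than the sort. The protoplasts were sorted by DNA content into a 2n gate (G1), a gate between 2n and 4n (S) and a 4n gate (G2M), with 2 libraries per gate and 6 in all. DNA content stands in for phase, so a gate may hold dividing cells together with cells that have left the cycle at that content. The labels do not say whether the libraries of a gate came from separate plants or sorts, so p-values measure the spread between these libraries, which may be technical.

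MYB3R proteins carry 3 Myb repeats and bind the mitosis-specific activator element, whose core is AACGG, in promoters of genes needed for mitosis and cytokinesis. In Arabidopsis MYB3R4 is known as an activator of these genes, MYB3R3 and MYB3R5 as repressors that keep them silent outside mitosis, and MYB3R1 has been assigned to both roles. TSO1 is a cysteine-rich CXC protein linked with MYB3R1 in the control of meristem cell division. Its family provides DNA-binding subunits of DREAM complexes, which also hold RBR1, E2F, DP and ALY proteins. SCL28 is known as a target of MYB3R proteins that in turn promotes genes for SIAMESE-related inhibitors of cyclin-dependent kinases and so lengthens G2.

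Total counts per library ran from 13114711 in S replicate 2 to 208406910 in S replicate 1, and the floor of 3 counts was worth between 0.0136 and 0.235 CPM (TMM-scaled counts relative to library size), which covers counting error only. The libraries of the S gate were the least alike (SD of the log2 difference over genes 1.25, against 0.668 in G1 and 0.917 in G2M). S replicate 2 correlated less with S replicate 1 (r = 0.932 across genes, which are not independent replicates) than with any library of the other gates (0.935 and 0.935 for G1, 0.940 and 0.946 for G2M). Root meristem regulators were present (summed level of 6 genes from 115 to 214 CPM), with WOX5 at or below 0.542 CPM in every library. The 4 leaf genes summed to between 3.38 and 5.82 CPM, the 4 root hair genes to between 0.941 and 4.60 CPM and the 4 xylem genes to between 6.51 and 17.9 CPM. The endocycle activators CCS52A1 and CCS52A2 summed to 33.3 and 37.6 CPM in G1, 9.53 and 19.1 CPM in S, then 26.0 and 25.2 CPM in G2M. Cell type markers differed between the gates. The 4 root cap regulators summed to 539 and 461 CPM in G1 (replicates 1 and 2), 359 and 368 CPM in S, then 109 and 100 CPM in G2M, and the 4 phloem markers to 70.3 and 63.0, 24.1 and 16.0, and 13.6 and 12.8 CPM. The sum of meristem regulators went the other way, from 115 and 119 CPM in G1 to 170 and 204 CPM in S and 214 and 211 CPM in G2M. By mean, SHR (26.6, 50.6 and 70.3 CPM), BBM and SCR rose in both steps. PLT1 (45.1, 61.1 and 51.2 CPM) and PLT2 (25.4, 42.8 and 41.0 CPM) rose only from G1 to S, and WOX5 in neither step. The part of these shifts in the results on the 7 genes was not tested, and in such bulk libraries fewer cells of a type and less RNA per cell cannot be told apart.

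MYB3R4 and SCL28 stood at a low level in the G1 gate and many times higher in the S and G2M gates. MYB3R3 and TSO1 were higher in the S gate than in the G1 gate by less than 2-fold. MYB3R1 rose between the G1 and G2M gates, and MYB3R2 fell between them. MYB3R5 passed no comparison by edgeR, the main test. Between S and G1, 4 of 7 genes were higher and none lower (edgeR quasi-likelihood test, Benjamini-Hochberg adjusted p below 0.05 over 25364 genes), where 13.9% of all tested genes were higher, 7.28% lower and 21.2% either. Between G2M and G1, 5 were higher and 1 lower, where 23.2% of all genes were higher, 17.1% lower and 40.3% either. Between G2M and S only SCL28 was called, where 9.46% of all genes were higher, 10.1% lower and 19.6% either. The median log2 fold changes of the 7 genes were 0.69 for S versus G1, 0.17 for G2M versus S and 0.75 for G2M versus G1, against 0.08, −0.10 and −0.14 over all tested genes. With upper-quartile factors the share of called genes that were higher fell from 65.6% to 44.2% for S versus G1 and from 57.5% to 44.0% for G2M versus G1. Of the calls on the 7 genes, only that of MYB3R3 for G2M versus G1 was lost with those factors. At this size (2 libraries against 2) the smallest p of an exact permutation test is 0.333, and edgeR borrows its estimate of spread from all genes. The 3 comparisons share libraries pairwise and are not independent of each other.

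**Figure D1:**
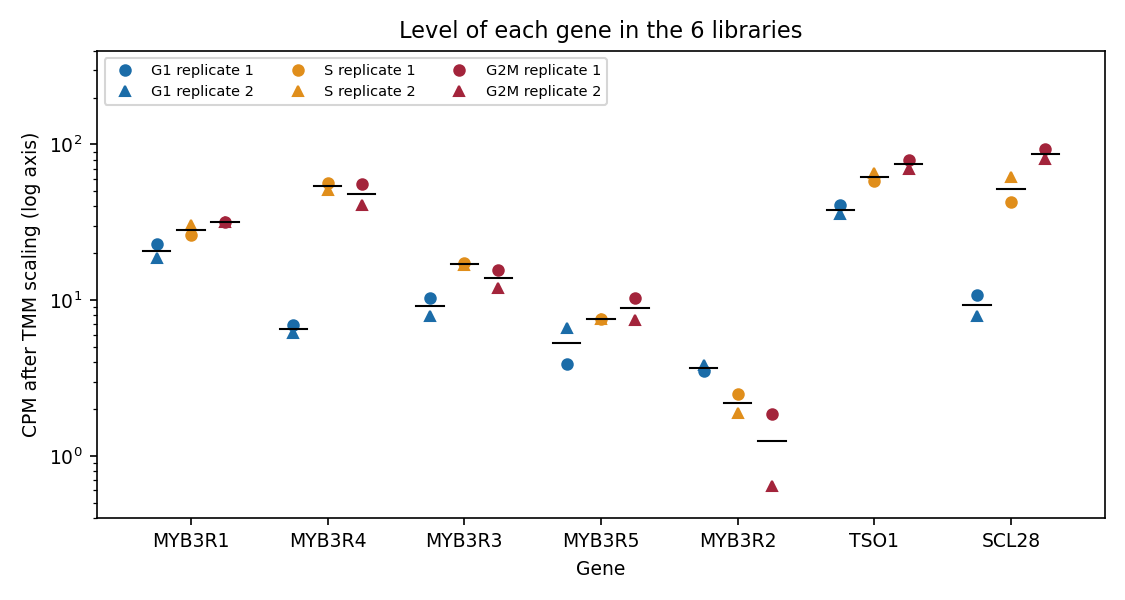
Level of each gene in CPM after TMM scaling (log axis) in the 6 libraries, coloured by gate, with the mean of each gate as a bar. MYB3R4 and SCL28 stand at 6.20 to 10.7 CPM in the G1 libraries and at 40.7 CPM or more in every S and G2M library, whereas MYB3R2 is lowest in G2M.

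The 250 bases before the annotated start of each gene were searched on both strands for AACGG, the core of the element that MYB3R proteins bind. Whether matches bear on the changes between gates was not tested. The 5 letters occur at least once in 20.6% of the 27443 windows of nuclear protein-coding genes, at least 2 times in 3.62% and at least 4 times in 0.153%. SCL28 held 4 matches, at 102, 74, 55 and 35 bases upstream, MYB3R3 held 2, and MYB3R4 and MYB3R5 held 1 each. MYB3R1, MYB3R2 and TSO1 had none in this window. In the list of mitotic genes 19 of 28 windows held the core (67.9%), 12 of them at least 2 times. Among TSO1 relatives 5 of 7 held it (71.4%), 0 of them at least 2 times. It was held by 5 of 10 DREAM partners (50%), 2 of them at least 2 times. Of the SIAMESE-related inhibitors 5 of 14 held it (35.7%), 1 of them at least 2 times. The windows with a match are shown 5′ to 3′ on the gene's strand, from the TAIR10.1 reference, with AACGG or its complement CCGTT in capitals, to set the dense matches of SCL28 beside the others.
SCL28 (chr1:23402177-23402426, minus strand): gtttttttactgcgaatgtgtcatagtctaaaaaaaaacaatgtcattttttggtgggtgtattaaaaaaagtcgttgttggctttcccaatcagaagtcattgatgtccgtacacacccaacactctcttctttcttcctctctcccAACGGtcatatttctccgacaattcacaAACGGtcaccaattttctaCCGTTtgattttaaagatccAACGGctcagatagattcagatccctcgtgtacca
MYB3R4 (chr5:3679498-3679747, plus strand): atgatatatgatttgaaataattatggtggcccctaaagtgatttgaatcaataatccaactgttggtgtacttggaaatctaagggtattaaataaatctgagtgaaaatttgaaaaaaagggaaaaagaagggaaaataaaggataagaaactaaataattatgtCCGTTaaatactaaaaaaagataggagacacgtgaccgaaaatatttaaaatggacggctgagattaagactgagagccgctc
MYB3R3 (chr3:2879103-2879352, plus strand): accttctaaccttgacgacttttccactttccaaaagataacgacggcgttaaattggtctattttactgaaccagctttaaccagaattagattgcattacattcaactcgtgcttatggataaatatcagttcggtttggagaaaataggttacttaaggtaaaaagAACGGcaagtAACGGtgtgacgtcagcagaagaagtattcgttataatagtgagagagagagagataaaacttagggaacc
MYB3R5 (chr5:486474-486723, minus strand): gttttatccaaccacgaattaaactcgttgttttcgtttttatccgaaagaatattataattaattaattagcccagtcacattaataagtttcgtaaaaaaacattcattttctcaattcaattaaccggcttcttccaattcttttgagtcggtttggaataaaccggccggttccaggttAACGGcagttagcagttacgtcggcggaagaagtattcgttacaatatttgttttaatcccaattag

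The windows of the repressors MYB3R3 and MYB3R5 share a run of 16 bases, gaagaagtattcgtta, the longest shared by any pair of the 7, which starts 53 bases upstream of MYB3R3 and 41 bases upstream of MYB3R5. The next longest run shared by a pair was 11 bases. The letters TTTGAA, a cell cycle homology region (CHR) that animal relatives of TSO1 bind, occurred 3 times before MYB3R4 and once before MYB3R1, where 38.8% of all windows hold at least 1 match and 1.95% at least 3. The E2F-type sites TTTCCCGC and TTTGGCGC were found in none of the 7 windows (0.958% of all windows). A match is a description of the sequence and not a site shown to be bound, all of the genes but TSO1 have more than 1 annotated transcript, and the window was set at the outermost start.

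**Figure D2:**
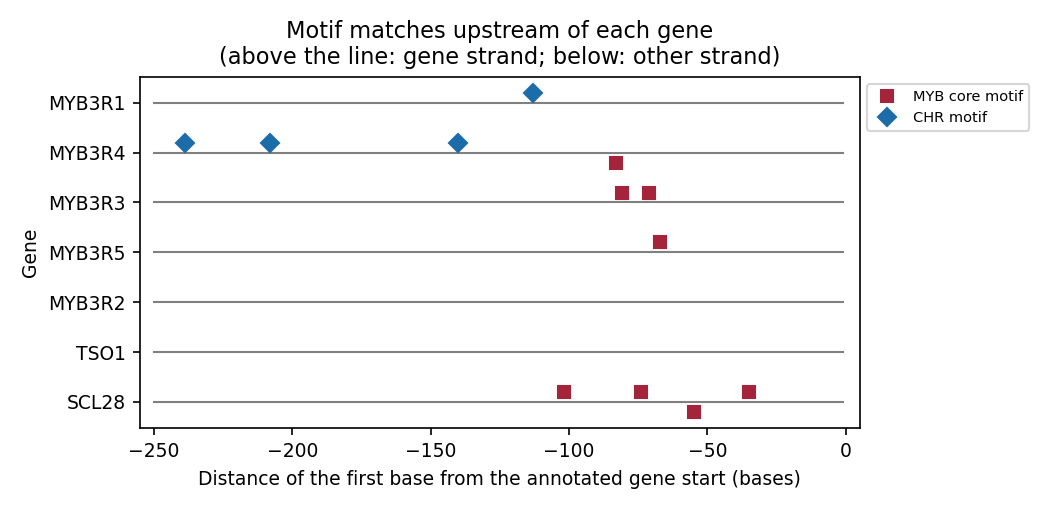
Positions of the MYB core motif (squares) and the CHR motif (diamonds) in the 250 bases upstream of the annotated start of each gene (x axis, bases from the start), above the line on the gene's strand and below it on the other. SCL28 has 4 core matches between 102 and 35 bases upstream, and MYB3R4 has 1 core and 3 CHR matches.

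By position on TAIR10.1, MYB3R1 lies on chromosome 4 from 15790133 to 15796114 (plus strand), MYB3R2 on chromosome 4 from 234597 to 237582 (minus), MYB3R3 on chromosome 3 from 2879353 to 2882396 (plus), MYB3R4 on chromosome 5 from 3679748 to 3684884 (plus), MYB3R5 on chromosome 5 from 482793 to 486473 (minus), TSO1 on chromosome 3 from 8048802 to 8052504 (plus) and SCL28 on chromosome 1 from 23399112 to 23402176 (minus). The merged exons were between 1745 bases in MYB3R2 and 3874 bases in MYB3R1, and their GC content was between 39.3% and 41.9%. Of the exon windows of 50 bases, 5 of 3266 in MYB3R1 and 12 of 1304 in MYB3R2 occur elsewhere in the genome, and none in MYB3R3, MYB3R4, TSO1 or SCL28.

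MYB3R4, the activator, had 6.95 and 6.20 CPM in the G1 libraries, 56.2 and 51.4 CPM in S and 55.6 and 40.7 CPM in G2M. The G1 libraries were thus far below all others, while the S and G2M libraries overlapped. A lack of overlap with G1, in either direction, held for 55.2% (S) and 78.4% (G2M) of all tested genes. From G1 to S it rose 8.18-fold, by 3.03 ± 0.18 (log2 fold change ± SE, edgeR adjusted p = 2.96e-07), from 6.57 ± 0.533 to 53.8 ± 3.44 CPM (mean ± SD, n = 2). Between G1 and G2M it rose 7.28-fold (2.86 ± 0.18, edgeR adjusted p = 1.60e-07). The difference between G2M and S did not pass (−0.17 ± 0.17, 95% interval −0.53 to 0.19, edgeR adjusted p = 0.492), although it passed as a fall of 0.44 when GC and exon length offsets were joined to a replicate block (edgeR adjusted p = 0.0443) and stood at 0.05 without G2M replicate 2. Neither rise lost its call in any fit without 1 library, where the S versus G1 change ran from 2.95 to 3.12 and the G2M versus G1 change from 2.65 to 3.07.

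MYB3R1, which shares activating and repressing roles, had 23.1 and 18.6 CPM in G1, 26.2 and 30.3 CPM in S and 31.7 and 31.8 CPM in G2M. The gates did not overlap, but they lay close together. It rose by 0.60 ± 0.16 from G1 to G2M (edgeR adjusted p = 0.00950), from 20.8 ± 3.20 to 31.7 ± 0.0801 CPM, while the changes from G1 to S (0.43 ± 0.16, adjusted p = 0.0801) and from S to G2M (0.17 ± 0.16, adjusted p = 0.470) did not pass. The rise to G2M ended, at −0.022, with GC and exon length offsets (edgeR adjusted p = 0.919); it also lost the call without G1 replicate 2 (0.46, adjusted p = 0.121), without G2M replicate 1 (0.63, 0.0603), without G2M replicate 2 (0.60, 0.0667) and on recomputed TPM (limma adjusted p = 0.0651). Without S replicate 1 the change from G1 to S passed (0.54, edgeR adjusted p = 0.0436).

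MYB3R3, a repressor, had 10.4 and 7.91 CPM in G1, 17.5 and 16.7 CPM in S and 15.6 and 11.996 CPM in G2M. It was highest in S in both libraries, and no gates overlapped. Taken as pairs of gates, in either direction, 55.2% to 78.4% of all tested genes did not overlap, by comparison. The rise from G1 to S was 1.87-fold (0.90 ± 0.21, edgeR adjusted p = 0.00797), and the call was lost without G1 replicate 2 (0.72, adjusted p = 0.0999) and on recomputed TPM (limma adjusted p = 0.0518). The smaller rise from G1 to G2M (0.58 ± 0.21, edgeR adjusted p = 0.0423) was lost without G1 replicate 2 (0.40, adjusted p = 0.278), G2M replicate 1 (0.41, 0.321) or G2M replicate 2 (0.76, 0.0503), and it was 0.29 with GC and length offsets (adjusted p = 0.276). The step from S to G2M did not pass (−0.32 ± 0.21, 95% interval −0.78 to 0.14, adjusted p = 0.300).

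MYB3R5, the other repressor, had 3.90 and 6.65 CPM in G1, 7.53 and 7.61 CPM in S and 10.3 and 7.47 CPM in G2M. Both G1 libraries lay below all others, yet they differed from each other by more than the gates S and G2M did. Libraries did not overlap for 55.2% of all tested genes between S and G1 and for 78.4% between G2M and G1. On TPM the gap was narrow, with 4.63 in G1 replicate 2 and 4.68 in G2M replicate 2. Its changes of 0.53 ± 0.30 from G1 to S (edgeR adjusted p = 0.265), 0.22 ± 0.30 from S to G2M (0.629) and 0.75 ± 0.30 from G1 to G2M (0.0647) did not pass by edgeR. The change from G1 to S passed with limma-voom (0.67, adjusted p = 0.0288). The G1 to G2M change passed without G1 replicate 2 (1.18, adjusted p = 0.0250), without S replicate 1 (0.0406), without S replicate 2 (0.0382), with DESeq2 (0.0492), with limma-voom (0.0437) and in a fit of the 4 libraries concerned (0.0471). Of its 2059 exon windows of 50 bases, 119 also occur elsewhere in the genome, and 150 bases of its exons (6.1%) lie over exons of PRT6 on the opposite strand. PRT6 itself was at 20.9 ± 2.30 CPM in G1 and 48.2 ± 4.93 CPM in G2M (mean ± SD, n = 2), and without a stated strand setting reads of the overlap cannot be told apart.

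MYB3R2, the remaining gene of the family, had 3.51 and 3.82 CPM in G1, 2.49 and 1.88 CPM in S and 1.87 and 0.637 CPM in G2M. It went against the other 6 genes, with the highest values in G1. Its counts were small outside the deep libraries, at 24 in S replicate 2, 28 in G2M replicate 1 and 19 in G2M replicate 2. The fall from G1 to G2M passed (−1.61 ± 0.53, 3.06-fold lower, edgeR adjusted p = 0.0273) but not without G1 replicate 1 (−1.66, adjusted p = 0.0944), G1 replicate 2 (−1.54, 0.121) or G2M replicate 2 (−0.98, 0.253). Neither step on its own passed, at −0.72 ± 0.49 from G1 to S (adjusted p = 0.375) and −0.89 ± 0.53 from S to G2M (0.250). The root cap and phloem markers fell across the same gates, and their part in this fall was not tested.

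**Figure D3:**
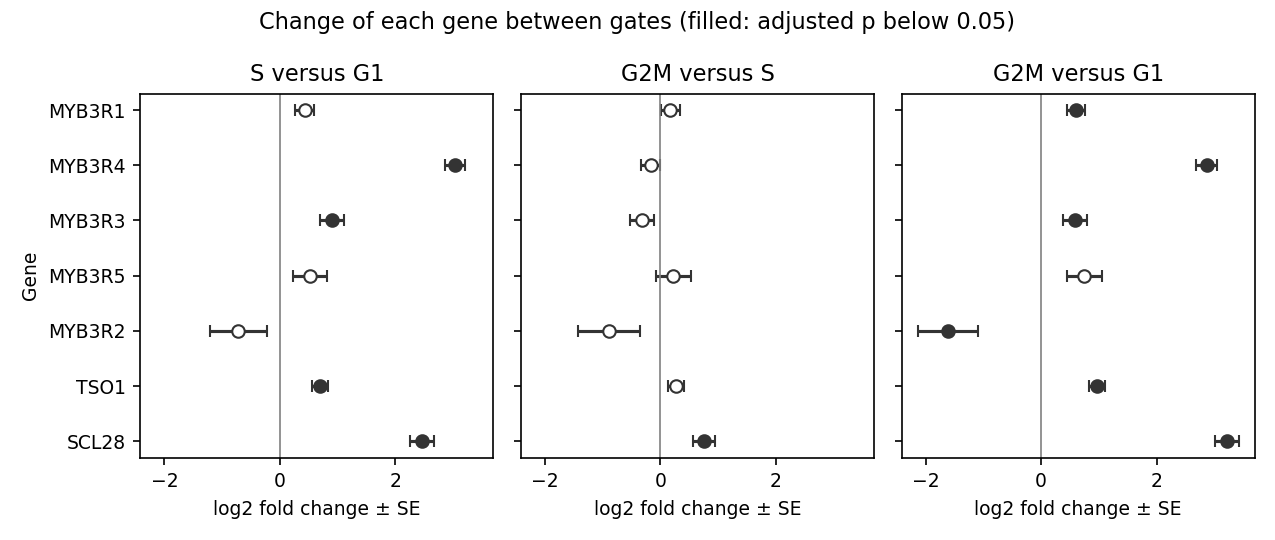
Log2 fold change with its SE from edgeR for each gene in the 3 comparisons, with filled points where the adjusted p is below 0.05. The rises of MYB3R4 (3.03 and 2.86) and SCL28 (2.46 and 3.21) over G1 stand apart from changes of the other 5 genes, and only SCL28 is filled between G2M and S.

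The makeup of the MYB3R pool changed with these unequal shifts. Levels were set per length here, as TPM (counts over merged exon length, scaled to a fixed total per library). The summed TPM of the 5 MYB3R genes was 26.7 and 25.3 in the G1 libraries, then 60.4 and 54.0 in S, then 55.2 and 42.7 in G2M. MYB3R4 supplied 11.7% and 11.3% of it in the G1 libraries, then 44.5% and 41.8% of it in S and 42.5% and 39.5% of it in G2M. MYB3R1, the largest component in G1 at 37.3% and 32.3%, supplied 19.9% and 23.6% of it in S, then 23.2% and 29.5% of it in G2M. The ratio of MYB3R4 to the sum of the repressors MYB3R3 and MYB3R5 on the TPM scale was 0.306 and 0.271 in the G1 libraries, 1.42 and 1.33 in S, then 1.36 and 1.32 in G2M. Transcripts of MYB3R3 and MYB3R5 together thus outnumbered those of MYB3R4 in G1 and the reverse held in S and G2M, in every library. This order depends on leaving out MYB3R1, which has been assigned to both roles. With MYB3R1 added to the repressors, MYB3R4 lay below their sum in every library. MYB3R3 and MYB3R5 nevertheless had their lowest TPM in G1, at 6.73 ± 1.18 and 3.64 ± 1.40 (mean ± SD, n = 2).

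**Figure D4:**
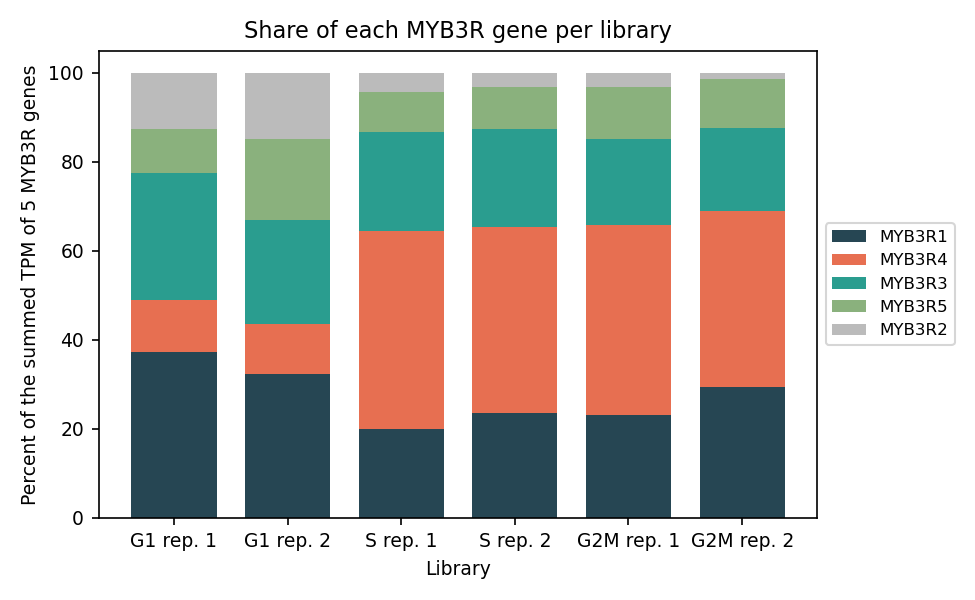
Percent of the summed TPM of the 5 MYB3R genes that each gene supplied in each library (stacked bars that add to the whole). The MYB3R4 share is 11.3% and 11.7% in the G1 libraries and between 39.5% and 44.5% in the S and G2M libraries.

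TSO1, the CXC partner of MYB3R1, had 40.6 and 35.7 CPM in G1, 58.1 and 65.7 CPM in S and 79.2 and 69.8 CPM in G2M. The gates did not overlap in CPM, with G1 lowest and G2M highest, which was so for 55.2% to 78.4% of all tested genes by comparison, in either direction. On TPM the S (38.76 and 40.29) and G2M (46.67 and 40.24) libraries overlapped. It rose by 0.69 ± 0.14 from G1 to S (1.62-fold, edgeR adjusted p = 0.00350) and by 0.96 ± 0.14 from G1 to G2M (1.95-fold, adjusted p = 1.29e-04), while the step from S to G2M did not pass (0.27 ± 0.14, adjusted p = 0.186) except without S replicate 2 (0.41, adjusted p = 0.0488). With GC and exon length offsets the rises shrank to 0.36 (adjusted p = 0.0392) and 0.40 (0.0122), while with no offsets the rise to S lost its call without G1 replicate 2 (0.60, 0.0584). Of its exon bases 286 (10.8%) lie over exons of NET1A on the opposite strand, a gene at 64.5 ± 6.16 CPM in G1 and 131 ± 17.9 CPM in G2M (mean ± SD, n = 2), and reads of that overlap cannot be told apart either.

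The 7 relatives of TSO1 with CXC domains followed it in part. Of these 3 were higher in S than in G1 and in G2M than in G1, where 13.9% and 23.2% of all tested genes were higher. The other 4 passed neither test. Between G2M and S 0 were called by edgeR, where 19.6% of all tested genes were called (1 passed before adjustment, and both DESeq2 and limma-voom called 0). In 5 of the 12 alternatives other than leaving out 1 library, and without S replicate 1, 1 relative was called lower in G2M than in S. AT4G29000 had 6.07 and 5.85 CPM in G1, 17.3 and 17.2 CPM in S and 18.9 and 19.6 CPM in G2M, a rise of 1.53 ± 0.18 to S (edgeR adjusted p = 9.04e-05) and of 1.69 ± 0.18 to G2M (9.97e-06). AT2G20110 was at 6.94 and 7.85, then 18.9 and 23.3, then 22.3 and 20.7 CPM, rising by 1.50 ± 0.18 and 1.54 ± 0.18 over G1. Both relatives thus rose over G1 by more on the log2 scale than TSO1, a difference between genes that was not tested. SOL1 rose by 0.90 ± 0.16 to S and 0.62 ± 0.17 to G2M, from 12.1 and 11.9 CPM in the G1 libraries. The median log2 fold change of the 7 relatives was 0.60 for S versus G1 and −0.04 for G2M versus G1.

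SCL28, whose promoter window holds 4 AACGG matches, had 10.7 and 7.88 CPM in G1, 42.5 and 61.5 CPM in S and 93.1 and 80.6 CPM in G2M. No gates overlapped, which was so for 55.2% of all tested genes between S and G1, 60.0% between G2M and S and 78.4% between G2M and G1. It rose 5.50-fold from G1 to S (2.46 ± 0.20, edgeR adjusted p = 5.27e-06) and 9.28-fold from G1 to G2M (3.21 ± 0.21, adjusted p = 2.04e-07). The further rise of 0.75 ± 0.19 from S to G2M also passed (1.69-fold, adjusted p = 0.0175), the only such call among the 7 genes. That step lost its call without S replicate 1 (0.50, adjusted p = 0.107), without G2M replicate 1 (0.68, 0.138), without G2M replicate 2 (0.86, 0.0515) and on recomputed TPM (0.61, limma adjusted p = 0.129), always as a rise. The ratio of SCL28 to MYB3R4 on the TPM scale was 1.87 and 1.54 in the G1 libraries, 0.914 and 1.45 in S, then 2.03 and 2.40 in G2M, so it was lowest in S and highest in G2M with no overlap of libraries. That ordering of ratios has no test of its own.

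Genes for SIAMESE-related inhibitors of cyclin-dependent kinases, the class that SCL28 is known to promote, were lower in later gates wherever they passed the edgeR test. Of 14 listed genes 13 were tested, and 3 were lower and 0 higher in each comparison by edgeR (limma-voom called 2 higher in S than in G1), with medians of −0.60 for S versus G1, −0.43 for G2M versus S and −0.53 for G2M versus G1. Of all tested genes 7.28%, 10.1% and 17.1% were lower in the same order, and the count for G2M versus G1 lies near that background. AT5G02420, annotated as SMR3-like, had 14.4 and 14.3 CPM in G1, 8.21 and 6.27 CPM in S and 2.87 and 3.59 CPM in G2M. It fell by 0.96 ± 0.24 to S (edgeR adjusted p = 0.0115) and by 1.17 ± 0.26 from there to G2M (0.00786). AT1G10690, annotated as a cyclin-dependent kinase inhibitor, averaged 17.6 ± 0.527 CPM in G1, 12.4 ± 0.526 CPM in S and 4.50 ± 1.18 CPM in G2M (mean ± SD, n = 2), and its fall from S to G2M was 1.43 ± 0.23 (adjusted p = 0.00116). SMR4 (AT5G02220) was at 6.04 and 6.68 CPM in G1, 6.83 and 5.96 CPM in S and 2.13 and 2.41 CPM in G2M, falling by 1.49 ± 0.31 between S and G2M (adjusted p = 0.00553). AT5G40460 (−0.94 ± 0.28, adjusted p = 0.0311) and AT2G28330 (−0.60 ± 0.19, 0.0437) were the others that were lower in S than in G1. The S versus G1 falls numbered 0 without either G1 library and with GC and length offsets, and 1 without S replicate 1, without G2M replicate 1 and without G2M replicate 2, and the falls from S to G2M numbered 1 without G2M replicate 1. SMR5 (AT1G07500), known as a DNA damage-induced member, had 0 counts in all 6 libraries. The root cap and phloem markers given above fell across the same gates, and their part in these falls was not tested.

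The other subunits of DREAM complexes were called about as often as all tested genes. Of 10 genes 2 were higher and 1 lower in S than in G1, 1 higher and 1 lower in G2M than in S, and 3 higher and 2 lower in G2M than in G1, where 13.9% and 7.28%, 9.46% and 10.1%, and 23.2% and 17.1% of all genes were higher and lower. RBR1, the retinoblastoma protein that restrains E2F, dropped from 81.4 ± 6.59 CPM in G1 to 46.5 ± 8.43 CPM in S (−0.82 ± 0.15, edgeR adjusted p = 0.00163) and stood at 93.3 ± 1.37 CPM in G2M (mean ± SD, n = 2), a rise of 1.02 ± 0.15 from S (adjusted p = 6.21e-04). MSI1, a WD-repeat histone-binding protein, rose from 66.6 ± 4.48 CPM in G1 to 99.3 ± 7.89 CPM in S and 107 ± 8.22 CPM in G2M (0.57 ± 0.13 and 0.68 ± 0.13 over G1, edgeR adjusted p = 0.00658 and 9.29e-04). E2FB was lower in G2M, at 11.4 ± 0.261 CPM, than in S (−0.61 ± 0.17, edgeR adjusted p = 0.0286) and G1 (−0.59 ± 0.17, 0.0149). Among the ALY genes, relatives of the animal LIN9 subunit, ALY3 was higher in S than in G1 (0.57 ± 0.19, adjusted p = 0.0454), and ALY1 was lower in G2M than in G1 (−0.73 ± 0.22, 0.0163) while the E2F partner DPA was higher (0.48 ± 0.16). ALY2 was higher too (0.47 ± 0.14), and is named here after its value was seen. These counts moved with the fit: among S versus G1 calls, 0 were higher without G1 replicate 2, 1 without any other library but S replicate 1, and 2 lower without S replicate 2. Between G2M and S, 0 were lower without either G1 or either G2M library and 2 without either S library, and 3 were higher without S replicate 2. Between G2M and G1, 1 was higher without either G1 or either G2M library, and lower genes numbered 0 without G1 replicate 1 or either G2M library and 1 without G1 replicate 2.

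Mitotic genes, a class that includes known targets of MYB3R proteins, were higher in S and G2M than in G1, as MYB3R4 and SCL28 were. Control of the listed genes by MYB3R proteins was not tested. All 28 mitotic genes of the list were higher in S and in G2M than in G1 in the main test, with edgeR medians of 3.51 and 3.66. Of all tested genes 13.9% and 23.2% were higher there. The 28 were also called in all 12 alternatives other than leaving out 1 library. The list was chosen with earlier results of these data known, so its count is a description only. The largest changes from G1 to S were those of DRP5A, a dynamin of the cell plate (5.03 ± 0.0587 CPM in G1, 171 ± 16.9 CPM in S, 5.09 ± 0.17), and of the cyclins CYCA1;1 (4.88 ± 0.17) and CYCB1;2 (4.87 ± 0.20), ahead of the phragmoplast protein PLE (4.16 ± 0.17). From G1 to G2M they were those of CYCB1;2 (5.38 ± 0.21), DRP5A (5.16 ± 0.17), CYCB2;4 (4.82 ± 0.18) and CYCB1;4 (4.74 ± 0.17). The changes of MYB3R4 (3.03) and SCL28 (2.46) from G1 to S were below the median of this list. Between S and G2M their median was 0.15, with 3 higher, 1 lower and 24 not passing, a share of higher genes near the 9.46% of all tested genes. Those 3 were CYCB1;4 (65.5 ± 5.08 to 110 ± 16.0 CPM, 0.75 ± 0.15, edgeR adjusted p = 0.00453), CYCB2;4 (0.72 ± 0.15, 0.00595) and CYCB2;3 (0.61 ± 0.16, 0.0180), all B-type cyclins that drive mitotic entry. OSD1, an inhibitor of the anaphase-promoting complex, was lower (−0.54 ± 0.12, adjusted p = 0.00791). SCL28 at 0.75 thus had about the same step between S and G2M as CYCB1;4, and MYB3R4 at −0.17 lay with the genes that did not pass. The count of higher genes was 0 without G2M replicate 1, 6 without either G1 library and 7 without S replicate 2, and OSD1 was no longer called without either G2M library.

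**Figure D5:**
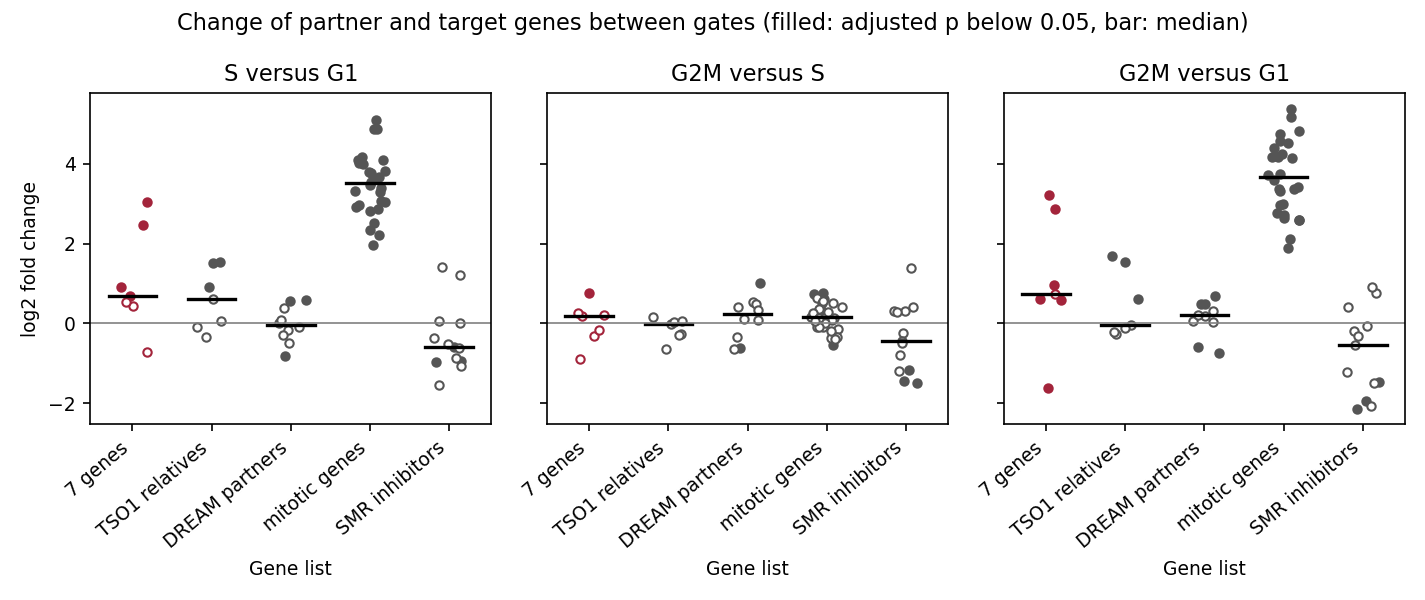
Log2 fold change of the 7 genes, the TSO1 relatives, DREAM partners, mitotic genes and SIAMESE-related (SMR) inhibitors in each comparison, filled where the adjusted p is below 0.05, with the median as a bar. The mitotic genes lie well above 0 over G1 (medians 3.51 and 3.66) and near 0 between G2M and S (0.15), and the SMR inhibitors have medians below 0 in all 3 panels (−0.60, −0.43 and −0.53).

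On the TPM scale the order of the 7 genes changed between gates. In G1 TSO1 was highest at 24.2 ± 1.85 TPM (mean ± SD, n = 2), followed by MYB3R1 (9.07 ± 1.26), MYB3R3 (6.73 ± 1.18), SCL28 (5.12 ± 1.03), MYB3R5 (3.64 ± 1.40), MYB3R2 (3.55 ± 0.262) and MYB3R4 (2.99 ± 0.197), where libraries of the neighbours SCL28 and MYB3R5, and of MYB3R5 and MYB3R2, overlapped. In S TSO1 (39.5 ± 1.08) was followed by SCL28 (28.6 ± 5.74) and MYB3R4 (24.7 ± 3.06), which overlapped, then by MYB3R3 (12.7 ± 1.16) and MYB3R1 (12.4 ± 0.543), which also overlapped, MYB3R5 (5.25 ± 0.276) and MYB3R2 (2.14 ± 0.547). In G2M SCL28 (44.0 ± 5.11) and TSO1 (43.5 ± 4.55) overlapped at the top, above MYB3R4 (20.15 ± 4.68), MYB3R1 (12.7 ± 0.157), MYB3R3 (9.35 ± 1.86), MYB3R5 (5.62 ± 1.33) and MYB3R2 (1.12 ± 0.789). MYB3R4 thus moved from the lowest place in G1 to the third in S and G2M.

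The genes most like each of the 7 were sought by Pearson's r of log2 CPM over the 6 libraries, which share gates, depth and cell makeup, so r is given as a description only. For MYB3R4, among 5454 nuclear genes with a symbol and a mean of at least 10 CPM, these were FU (r = 0.999), a FUSED-type kinase of cytokinesis, MPK5 (0.999), a mitogen-activated protein kinase, and PAKRP1 (0.998), a phragmoplast kinesin that is also on the list of mitotic genes. FU went from 11.96 CPM in G1 to 78.8 CPM in S and 77.0 CPM in G2M, and PAKRP1 from 5.22 to 36.9 and 34.8 CPM. For SCL28 they were DMS3 (RNA-directed DNA methylation), LOS4 (an RNA helicase) and PDF1B (a peptide deformylase) (r = 0.999, 0.999 and 0.998), whose pattern was alike but whose range was smaller, as in DMS3 from 15.9 to 26.6 and 30.2 CPM. TSO1 was most like ENOC, UBP10 and CUL1 (0.9997, 0.999 and 0.999), and MYB3R1 like TUB2, BSL2 and GAUT9 (0.998, 0.995 and 0.993). MYB3R3 was most like CLPX, SK13 and CESA1 (0.994, 0.994 and 0.991). The values were lower for MYB3R5 (TMT2, DEG8 and SAC3A, 0.967, 0.965 and 0.955) and MYB3R2 (TAF2, AMY3 and ENP, 0.968, 0.953 and 0.951), the least abundant of the 7 genes in CPM. Among the 7 genes themselves, TSO1 and SCL28 were the most alike (r = 0.995), and MYB3R2 had a negative r with all others.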

How the data were processed

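The 6 libraries were made with SMART-Seq v4 amplification followed by the Ovation Ultralow V2 kit, per the labels' protocols. Trimmomatic 0.39, HISAT2 2.2.1, featureCounts and the build TAIR10 are named in the submitters' processing notes; the sources used here give no options, strandedness or handling of reads with several matches. The authors deposited a raw count per gene and library, which was used as deposited. A second deposited table, named TPM, sums to far below 1 per library and was not used. Positions, exon lengths, GC content and promoters come from the TAIR10.1 reference (RefSeq), whose nuclear chromosomes were used by gene identifier; 32548 of 32833 genes had an exon length.

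Genes were tested with edgeR 4.0.16 (R 4.3.3): filterByExpr, TMM factors, then 1 quasi-likelihood fit with a term per gate to all 6 libraries, with Benjamini-Hochberg adjustment over 25364 genes and a threshold of 0.05. The SE is the log2 fold change divided by the root of F. The script was tested on simulated data. CPM uses the same effective library sizes, and log2 CPM a prior count of 2. Alternatives used DESeq2 1.42.0 and limma 3.58.1 (voom, and log2 of TPM plus 1), other scalings and filters, thinned libraries, offsets, a replicate block and each library left out. All 7 genes are named; from each list, called genes of the rarer direction and up to 4 with the largest change; and for likeness the 3 highest r. Genes without a symbol in the annotation are called by identifier. The 7 genes and the lists were chosen with earlier results of these data known.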

Additional observations from a re-analysis of the deposited data

How the results depend on the processing

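The rises of MYB3R4 and SCL28 over G1 passed in all 18 alternatives to each comparison, and so did that of TSO1 between G1 and G2M. In the 12 alternatives other than leaving out 1 library, the MYB3R4 changes ran from 2.65 to 3.12 and from 2.21 to 2.92, and those of SCL28 from 2.12 to 2.47 and from 2.66 to 3.22. Over all alternatives, of the log2 fold changes of the 7 genes 343 kept their side of the threshold, 25 lost a call and 10 gained one. In 5 the sign turned: MYB3R1 with either kind of offset fit, in G2M versus G1, where its call was lost, and in G2M versus S (−0.08 in both), and MYB3R4 in G2M versus S without G2M replicate 2 (0.05), where neither value was called. Deviations from the gate means correlated at −0.05, 0.03 and −0.06 between same-numbered libraries. With 2 libraries per gate these deviations rest on 1 difference each, so they cannot decide whether the replicate numbers pair the libraries. With the replicate block no call of the 7 genes changed, and DREAM partners higher in S than in G1 numbered 1 in place of 2. Below, a log2 change is followed by its adjusted p, and the cause of the differences was not tested.

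Without 1 library in turn, the S versus G1 changes ran from 0.28 to 0.60 for MYB3R1, 0.72 to 1.11 for MYB3R3 and 0.58 to 0.79 for TSO1, the G2M versus S changes from 0.18 to 0.41 for TSO1 and 0.50 to 1.08 for SCL28, and the G2M versus G1 changes from 0.46 to 0.77 for MYB3R1, −2.50 to −0.98 for MYB3R2, 0.40 to 0.79 for MYB3R3 and 0.41 to 1.18 for MYB3R5. Called genes of the 7 then numbered 2 to 5 (S versus G1, all higher), 0 to 2 (G2M versus S, all higher) and 3 to 7 (G2M versus G1, 3 to 6 higher and 0 to 1 lower). DREAM partners numbered 0 to 2 higher and 1 to 2 lower, 1 to 3 higher and 0 to 2 lower, and 1 to 3 higher and 0 to 2 lower in the same order. Lower SMR inhibitors numbered 0 to 3 (S versus G1) and 1 to 3 (G2M versus S). TSO1 relatives lower in G2M than in S numbered 0 to 1, and mitotic genes 0 to 7 higher and 0 to 1 lower.

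Upper-quartile factors moved the median of all genes from 0.08 to −0.10 for S versus G1 and from −0.14 to −0.36 for G2M versus G1. MYB3R3 then stood at 0.37 (0.176) in G2M versus G1, DREAM partners at 1 higher and 2 lower (S versus G1) and 1 higher (G2M versus G1), SMR inhibitors at 5 lower (G2M versus G1), and TSO1 relatives at 1 and mitotic genes at 2 lower (G2M versus S). With DESeq2's size factors in edgeR, 1 DREAM partner was higher in S than in G1 and 5 mitotic genes in G2M than in S. Without a filter on low counts, 1 TSO1 relative and 2 DREAM partners were lower and 5 mitotic genes higher in G2M than in S. With the DESeq2 test, 2 DREAM partners and 7 mitotic genes were higher in G2M than in S, and MYB3R5 passed for G2M versus G1 at 0.75 (0.0492). With limma-voom, MYB3R5 passed for S versus G1 at 0.67 (0.0288) and G2M versus G1 at 0.82 (0.0437), MYB3R3 did not for G2M versus G1 at 0.49 (0.0920), 2 DREAM partners were lower and 2 SMR inhibitors higher and 5 lower in S than in G1, and 3 DREAM partners and 9 mitotic genes were higher and 2 of each lower in G2M than in S. In fits of 4 libraries, 0 DREAM partners were higher and 1 SMR inhibitor lower in S than in G1, 6 mitotic genes were higher in G2M than in S, and MYB3R5 passed for G2M versus G1 at 0.74 (0.0471). In thinned libraries, MYB3R3 stood at 0.54 (0.0532) in G2M versus G1, and 1 TSO1 relative and 2 mitotic genes were lower in G2M than in S.

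On recomputed TPM, MYB3R3 stood at 0.83 (0.0518) in S versus G1 and 0.42 (0.152) in G2M versus G1, MYB3R1 at 0.45 (0.0651) in G2M versus G1 and SCL28 at 0.61 (0.129) in G2M versus S. There 0 of the 7 genes and 0 mitotic genes were higher in G2M than in S, 3 of the 7 were higher in G2M than in G1, DREAM partners numbered 0 higher (S versus G1) and 1 higher and 1 lower (G2M versus G1), and 7 SMR inhibitors were lower in G2M than in G1. With GC and length offsets, MYB3R1 stood at −0.022 (0.919) and MYB3R3 at 0.29 (0.276) in G2M versus G1, and with the replicate block added at −0.023 (0.927) and 0.31 (0.230). Both such fits gave 3 of the 7 genes higher in G2M than in G1, DREAM partners at 1 higher and 2 lower (S versus G1) and 3 lower (G2M versus S), 0 SMR inhibitors lower in S than in G1, and 1 TSO1 relative lower in G2M than in S and than in G1. With block and offsets together, MYB3R4 passed for G2M versus S at −0.44 (0.0443), so 2 of the 7 genes were called there, 1 of them lower, and 2 mitotic genes were lower. Depth limits MYB3R2 most, with 19 to 28 counts in 3 libraries.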
